A study of Mus musculus with 12 samples.

Results

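Messenger RNA of 8 ATP-binding cassette (ABC) efflux transporter genes was described across 12 mouse liver libraries in 4 groups of 3. The genes are Abcb1a, Abcb4, Abcc2, Abcc3, Abcc4, Abcc6, Abcc12 and Abcg2, and they were picked by name as transporters known for exporting drugs, conjugates and bile constituents. All 8 were found among the 24553 entries of the deposited tables, Abcb1a in 2 entries and the others in 1 each, and with the higher Abcb1a entry all 8 were among the 11671 entries that reached an FPKM (a fragment count divided by transcript length and by the mapped fragments of the library) of 1 in at least 3 of the 12 libraries. Abcc12 met that filter only through the 3 KO tumors, the group in which it is high, so its passing is itself tied to the difference described for it. The groups were tumors of Setd2 knockout (KO) mice, tumors of wild-type (WT) mice, normal liver of KO mice and normal liver of WT mice. Tumor-bearing mice had received a single intraperitoneal dose of 25 mg/kg diethylnitrosamine (DEN), a liver carcinogen, as 2-week-old males, while the male mice that gave normal liver had no DEN. All tissue was taken at an age given as 8 months. Sample titles abbreviate the knockout as cKO, and the labels name neither the cells nor the driver of the deletion. Tumor and normal liver therefore differ in DEN exposure as well as in tissue, and these cannot be told apart.

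ABC transporters use ATP to move substrates across membranes. In hepatocytes some of them sit in the canalicular membrane and secrete into bile, and others sit in the basolateral membrane and return conjugates to blood. Canalicular export through Abcb4, Abcc2, Abcg2 and P-glycoprotein delivers phospholipid, bilirubin conjugates and drugs to bile, whereas basolateral Abcc3 and Abcc4 are known as an alternative route in cholestasis. Setd2 encodes the methyltransferase that trimethylates lysine 36 of histone H3.

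The 12 libraries were prepared from poly(A) RNA without keeping the strand. FPKM values summed to 423498 to 626303 in the tumors and 641848 to 719538 in the normal livers, and no read totals are given, so each value's depth is unknown. Setd2 itself had 3.14, 2.18 and 1.90 FPKM in KO tumors, 4.40, 3.61 and 4.07 FPKM in WT tumors, 1.66, 1.93 and 1.32 FPKM in KO livers, and 4.84, 3.84 and 4.70 FPKM in WT livers. KO libraries lay below WT libraries in both tissues. The difference was −1.05 ± 0.14 (log2 scale, ± SE) between KO and WT livers (limma, adjusted p = 0.0108) and −0.57 ± 0.19 between KO and WT tumors (limma, adjusted p = 0.188). The first call was lost with the replicate number as a block (adjusted p = 0.0566), and the second difference passed in 1 fit of all 12 libraries (adjusted p = 0.0493). Hepatocyte markers without Alb, which is listed at 0 in 11 of 12 libraries, summed to 26991 to 48636 FPKM in KO tumors, 49623 to 67158 in WT tumors, 53752 to 56047 in KO livers and 50748 to 55813 in WT livers. KO tumors had the lowest summed FPKM, with no overlap with any other group, but this depends on the scale. As a share of all FPKM of a library the same markers made up 5.71% to 7.77% in KO tumors, 10.02% to 11.3% in WT tumors, 7.62% to 8.23% in KO livers and 7.13% to 8.01% in WT livers, so that KO tumors stayed below WT tumors and overlapped both liver groups.

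Gene positions are those of GENCODE vM21, whose assembly GRCm38 is the one called mm10. Abcb1a lies at chr5:8660077-8748575 and its neighbor Abcb4 at chr5:8893717-8959231, both on the plus strand. Abcc2 lies at chr19:43782192-43840740 on the plus strand, Abcc3 at chr11:94343295-94392997 on the minus strand, Abcc4 at chr14:118482692-118706219 on the minus strand, and Abcc6 at chr7:45967555-46030302 on the minus strand. Abcc12 lies at chr8:86482260-86580686 on the minus strand and Abcg2 at chr6:58584523-58695676 on the plus strand. Unnamed gene models lie on the opposite strand within Abcb1a, Abcc4 and Abcc6, and without strand information their reads cannot be separated from those of the transporter.

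2 entries need care. The Abcc2 entry is shared with the gene model Gm10768, which RefSeq places just beyond the end of Abcc2, so its FPKM covers both. Abcb1a is listed in 2 entries, of which the one with the higher mean FPKM was taken. All 20 neighbors in the tables of that higher entry are genes on the minus strand, none on the plus strand, although Abcb1a lies on the plus strand. Of the 20 neighbors of the lower entry, 18 lie on the plus strand and none on the minus strand, among them Abcb1b and Abcb4. Which entry holds the reads of the Abcb1a transcript was not settled, so both are given. Abcb1a also has a near copy, Abcb1b, and the division of reads between them depends on the authors' counting.

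Upstream sequence is shown for Abcc12, Abcc4 and Abcc2, because these 3 were the members called between KO tumors and KO livers, the first pair higher and the last lower. Each run is the 250 bases before a RefSeq transcription start on GRCm38.p6, written 5′ to 3′ on the gene's strand, with motif matches in capitals. RefSeq starts were matched for 6 of the 8 members, and Abcc3 and Abcc6 are named only. The Abcc12 window is chr8:86566591-86566840 on the minus strand, which lies inside the longer GENCODE gene. The Abcc4 window is that of the outer of its RefSeq starts, chr14:118706220-118706469 on the minus strand, and the Abcc2 window is chr19:43782058-43782307 on the plus strand.
Abcc12: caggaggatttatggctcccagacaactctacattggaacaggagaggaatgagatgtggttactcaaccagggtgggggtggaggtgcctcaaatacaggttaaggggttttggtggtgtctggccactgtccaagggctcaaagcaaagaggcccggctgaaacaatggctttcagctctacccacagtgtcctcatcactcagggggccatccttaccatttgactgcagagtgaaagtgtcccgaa
Abcc4: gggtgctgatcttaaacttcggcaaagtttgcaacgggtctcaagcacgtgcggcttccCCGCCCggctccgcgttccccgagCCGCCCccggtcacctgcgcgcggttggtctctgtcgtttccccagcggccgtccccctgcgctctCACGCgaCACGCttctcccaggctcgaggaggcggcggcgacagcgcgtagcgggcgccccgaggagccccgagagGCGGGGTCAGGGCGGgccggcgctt
Abcc2: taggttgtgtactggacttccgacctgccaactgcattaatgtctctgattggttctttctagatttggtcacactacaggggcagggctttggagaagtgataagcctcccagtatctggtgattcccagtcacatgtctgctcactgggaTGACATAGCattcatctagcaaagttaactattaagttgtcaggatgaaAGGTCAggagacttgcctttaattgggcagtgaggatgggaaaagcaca
5 motifs were searched on both strands, namely the xenobiotic response core GCGTG, the antioxidant response core TGACNNNGC, the AP-1 site TGANTCA, the nuclear receptor half-site AGGTCA and the GC box GGGCGG. No matches overlapped each other in the members' windows. The Abcc12 window held none of the 5 and had 52.4% GC with 2 CpG dinucleotides. The Abcc4 window had 72.0% GC with 35 CpG, and held GCGTG in 2 places, TGACNNNGC in 1 and GGGCGG in 3. The Abcc2 window had 45.6% GC with 1 CpG, and held TGACNNNGC with its first base at −98 and AGGTCA with its first base at −49 from the start site. Over 32817 RefSeq windows of the same length the median was 52.4% GC and 6 CpG, and GCGTG occurred in 28.1%, TGACNNNGC in 10.2%, TGANTCA in 6.75%, AGGTCA in 14.0% and GGGCGG in 32.7%. A match describes letters only.

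**Figure D1:**
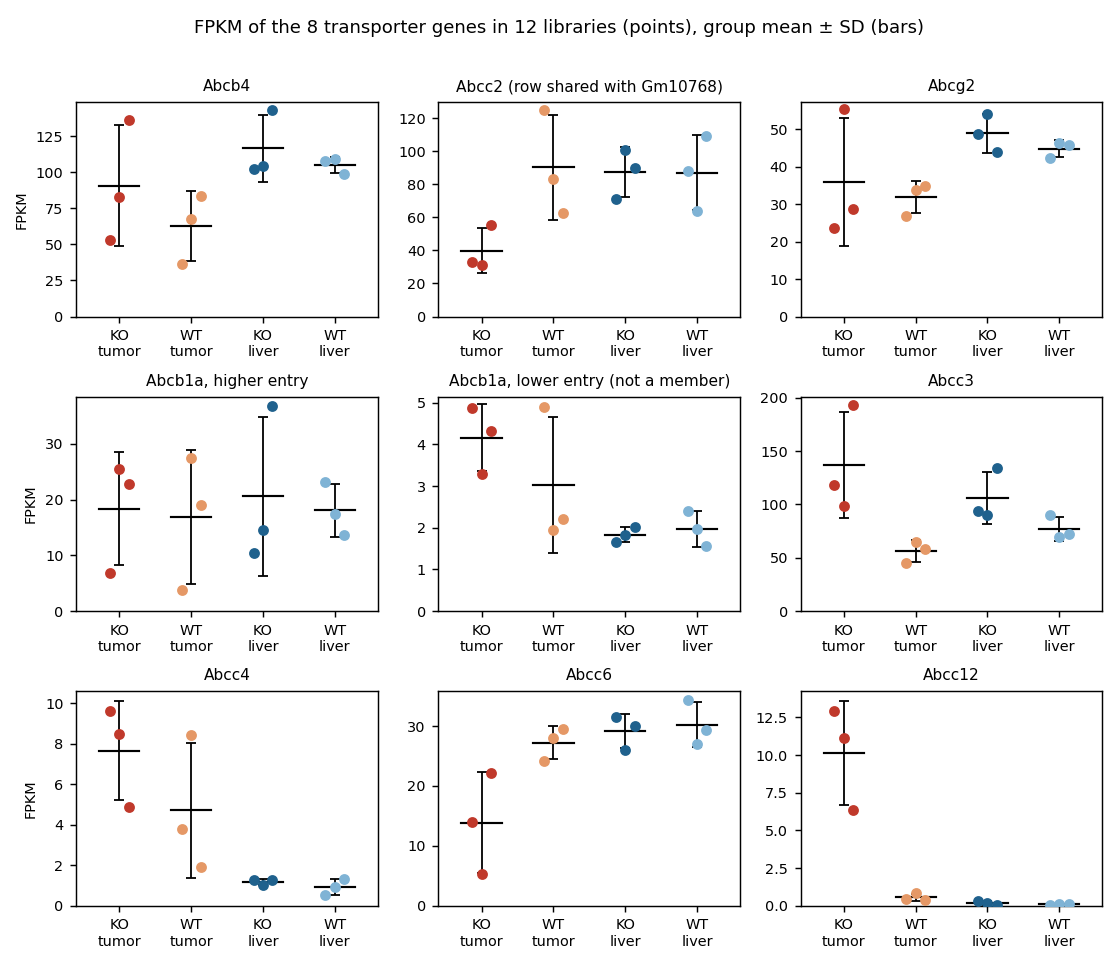
FPKM (vertical axes, each from 0) of the 8 transporter entries and of the lower Abcb1a entry in KO tumors, WT tumors, KO livers and WT livers; points are single libraries, horizontal bars the group mean and whiskers ± SD (n = 3). Abcc12 lay between 6.33 and 12.9 FPKM in KO tumors and at 0.843 FPKM or below in all 9 other libraries.

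Abcc12 had its highest level in KO tumors, above every library of the other 3 groups. It encodes an ABCC-family protein, also called MRP9, whose substrates are poorly known. It had 12.9, 11.1 and 6.33 FPKM in KO tumors, 0.450, 0.843 and 0.358 FPKM in WT tumors, 0.317, 0.180 and 0.0224 FPKM in KO livers, and 0.0666, 0.0905 and 0.110 FPKM in WT livers. All 3 KO tumors exceeded every other library, and WT tumors exceeded both liver groups. The mean in KO tumors was 18.4 times that in WT tumors and 58.6 times that in KO livers, although the denominators are close to 0 and their counting error is unknown. Among the 11671 tested entries Abcc12 ranked at the 47.2 to 67.0 percentile in KO tumors, at 1.499 to 5.83 in WT tumors, at 0.480 to 2.59 in KO livers and at 0.805 to 1.37 in WT livers.

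On the log2(FPKM + 1) scale, on which a change of a low gene is understated, Abcc12 was higher by 2.81 ± 0.27 in KO than in WT tumors (limma, adjusted p = 0.0306). It was higher by 3.20 ± 0.26 in KO tumors than in KO livers (limma, adjusted p = 0.0036). The difference of 0.50 ± 0.16 between WT tumors and WT livers missed the threshold (limma, adjusted p = 0.0683), although it passed with a pseudocount of 0.1 (1.72, adjusted p = 0.0448) and with TPM rescaling, in which FPKM are scaled to the same sum in each library (0.79, adjusted p = 0.0468). The difference of 0.10 ± 0.11 between KO and WT livers missed the threshold too (limma, adjusted p = 0.530). The KO effect was larger in tumors than in normal liver by 2.71 ± 0.32 (limma interaction, adjusted p = 0.0120), and this held in each of 18 alternative settings. The call between KO and WT tumors was lost without any 1 library other than KO tumor 3, with adjusted p of 0.0587 to 0.145 (limma), and also with a pseudocount of 5 (0.0532), without the filter on low FPKM (0.103) and with the replicate number as a block (0.0804).

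Abcc4 rose in KO tumors relative to KO livers. It encodes MRP4, a basolateral exporter of cyclic nucleotides and, together with glutathione, of bile acids. It had 9.60, 8.46 and 4.90 FPKM in KO tumors, 3.77, 8.42 and 1.93 FPKM in WT tumors, 1.25, 1.02 and 1.27 FPKM in KO livers, and 0.516, 0.918 and 1.296 FPKM in WT livers. Every tumor library exceeded every liver library, while KO and WT tumors overlapped. The mean was 6.49 times higher in KO tumors than in KO livers and 5.18 times higher in WT tumors than in WT livers. On the log2 scale the rise was 1.95 ± 0.24 in KO tissue (limma, adjusted p = 0.0081), called in all 13 alternative settings. In WT tissue the difference was 1.43 ± 0.40 (limma, adjusted p = 0.0518), and it passed without WT tumor 3 (1.83, adjusted p = 0.0249), with a pseudocount of 0.1 (2.09, adjusted p = 0.0389), with TPM rescaling (1.86, adjusted p = 0.0272) and in 1 fit of all 12 libraries (adjusted p = 0.0331). KO and WT tumors differed by 0.72 ± 0.44 (limma, adjusted p = 0.451), and the KO effect did not differ detectably between the tissues (0.51 ± 0.51, limma interaction, adjusted p = 0.587).

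Abcc3 lay higher in KO than in WT tumors in every library without passing the threshold. It encodes MRP3, which carries glucuronides and bile acids across the basolateral membrane. It had 118, 98.8 and 194 FPKM in KO tumors, 45.5, 64.9 and 58.6 FPKM in WT tumors, 93.7, 89.7 and 134 FPKM in KO livers, and 90.1, 69.6 and 71.8 FPKM in WT livers. WT tumors were the lowest group and overlapped none of the others, and KO tumors overlapped KO livers. After TPM rescaling KO tumors (192 to 309 TPM) lay above KO livers (130 to 188 TPM), and WT tumors (91.9 to 110.2 TPM) overlapped WT livers (97.1 to 140.4 TPM). The difference between KO and WT tumors was 1.22 ± 0.29 on the log2 scale (limma, adjusted p = 0.118), and passed in 1 fit of all 12 libraries (adjusted p = 0.0176). The difference was −0.45 ± 0.17 between WT tumors and WT livers (limma, adjusted p = 0.109), 0.33 ± 0.31 between KO tumors and KO livers (limma, adjusted p = 0.481) and 0.44 ± 0.18 between KO and WT livers (limma, adjusted p = 0.132). The interaction was 0.79 ± 0.36 (limma, adjusted p = 0.231).

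Abcc2 fell in KO tumors relative to KO livers. It encodes MRP2, the canalicular exporter of bilirubin glucuronides and glutathione conjugates. Its entry, shared with Gm10768, had 33.0, 31.1 and 55.6 FPKM in KO tumors, 125, 83.3 and 62.7 FPKM in WT tumors, 71.0, 101 and 89.7 FPKM in KO livers, and 88.2, 63.7 and 109 FPKM in WT livers. The 3 KO tumors were the 3 lowest of the 12 libraries, and the other groups overlapped one another. Abcc2 was lower by −1.14 ± 0.27 on the log2 scale in KO tumors than in KO livers (limma, adjusted p = 0.0367). That call was lost without any 1 library other than KO tumor 3 (adjusted p = 0.0806 to 0.130), with TPM rescaling (−0.72, adjusted p = 0.0688) and without the filter (adjusted p = 0.0649). KO and WT tumors differed by −1.15 ± 0.33 (limma, adjusted p = 0.155), which passed in 1 fit of all 12 libraries (adjusted p = 0.0393). WT tumors and WT livers differed by 0.03 ± 0.29 (limma, adjusted p = 0.953) and KO and WT livers by 0.02 ± 0.22 (limma, adjusted p = 0.953). The interaction was −1.17 ± 0.43 (limma, adjusted p = 0.142) and passed only without KO tumor 3 (−1.43, adjusted p = 0.0444).

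**Figure D2:**
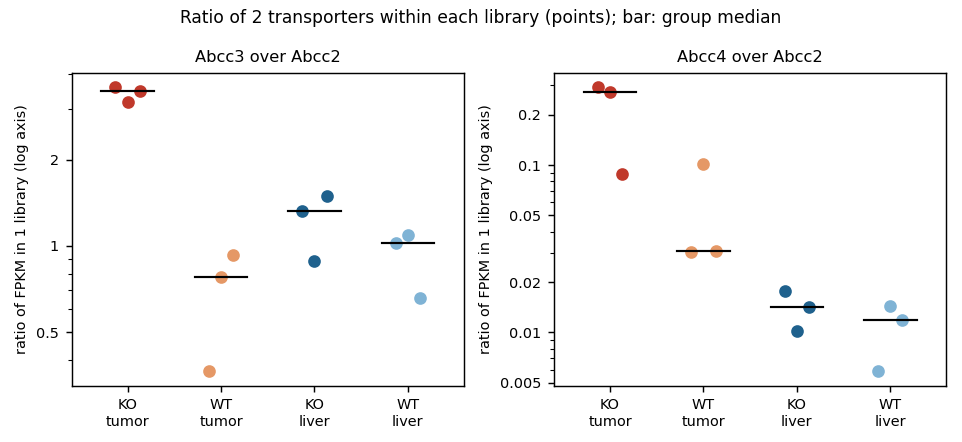
Ratio of the FPKM of Abcc3 (left) and Abcc4 (right) to that of Abcc2 in the same library, on log axes, for KO tumors, WT tumors, KO livers and WT livers; points are single libraries and bars group medians. The Abcc3 ratio of the 3 KO tumors lies between 3.18 and 3.58, above all 9 other libraries.

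The ratio of basolateral Abcc3 to canalicular Abcc2 within a library does not depend on how libraries are scaled, and was chosen after the values were seen. It was 3.58, 3.18 and 3.48 in KO tumors, 0.364, 0.779 and 0.934 in WT tumors, 1.32, 0.888 and 1.496 in KO livers, and 1.02, 1.09 and 0.656 in WT livers. KO tumors lay above every other library and varied little among themselves. The ratio of Abcc4 to Abcc2 was 0.291, 0.272 and 0.0881 in KO tumors, 0.0302, 0.101 and 0.0308 in WT tumors, 0.0176, 0.0101 and 0.0141 in KO livers, and 0.00585, 0.0144 and 0.0118 in WT livers. There KO and WT tumors overlapped through 1 library each, and both lay above all livers. Abcc3 made up 31.0% to 43.6% of the summed FPKM of the 8 members in KO tumors, 17.1% to 20.6% in WT tumors, 23.0% to 28.02% in KO livers and 19.4% to 23.3% in WT livers. Abcc2 made up 9.74% to 12.2% in KO tumors, 21.6% to 47.0% in WT tumors, 18.7% to 25.9% in KO livers and 19.1% to 29.5% in WT livers. The summed level itself was 271 to 470 FPKM in KO tumors, 266 to 314 in WT tumors, 359 to 479 in KO livers and 334 to 386 in WT livers.

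Abcc6 was low and variable in KO tumors. It encodes a transporter of the basolateral hepatocyte membrane on whose activity ATP release and circulating pyrophosphate depend, and its loss causes pseudoxanthoma elasticum in humans. It had 13.9, 5.35 and 22.2 FPKM in KO tumors, 24.2, 27.98 and 29.5 FPKM in WT tumors, 31.5, 26.1 and 30.0 FPKM in KO livers, and 34.4, 27.0 and 29.4 FPKM in WT livers. All 3 KO tumors lay below every other library, by a narrow margin for KO tumor 3. The difference was −1.11 ± 0.44 on the log2 scale between KO and WT tumors (limma, adjusted p = 0.261) and −1.21 ± 0.44 between KO tumors and KO livers (limma, adjusted p = 0.103). The second passed without KO tumor 3 (−1.63, adjusted p = 0.0236) and in 1 fit of all 12 libraries (adjusted p = 0.0258). The interaction of −1.07 ± 0.50 (limma, adjusted p = 0.238) passed without KO tumor 3 (−1.48, adjusted p = 0.0372). Between WT tumors and WT livers the difference was −0.14 ± 0.14 (limma, adjusted p = 0.476), with the opposite sign after TPM rescaling (0.15), and between KO and WT livers it was −0.05 ± 0.13 (limma, adjusted p = 0.817).

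Abcg2 fell in WT tumors relative to WT livers, the only member called in that comparison. It encodes the breast cancer resistance protein, which exports many drugs, urate and sulfated conjugates at the canalicular membrane. It had 23.5, 55.4 and 28.7 FPKM in KO tumors, 26.9, 33.7 and 34.8 FPKM in WT tumors, 48.9, 54.0 and 43.8 FPKM in KO livers, and 42.2, 46.4 and 45.9 FPKM in WT livers. WT tumors did not overlap WT livers, while KO tumor 2 exceeded every other library and the other 2 KO tumors lay below all livers. The difference was −0.49 ± 0.13 between WT tumors and WT livers (limma, adjusted p = 0.0444). That call was lost without any 1 library other than WT tumor 1 (adjusted p = 0.0632 to 0.137), with TPM rescaling (−0.20, adjusted p = 0.238), with median-of-ratios scaling (adjusted p = 0.0542), without the filter (adjusted p = 0.0553), in 1 fit of all 12 libraries (adjusted p = 0.233) and with the replicate number as a block (adjusted p = 0.0665). KO tumors and KO livers differed by −0.53 ± 0.32 (limma, adjusted p = 0.284), which passed without KO tumor 2 (−0.88, adjusted p = 0.0472). KO and WT tumors differed by 0.08 ± 0.32 (limma, adjusted p = 0.918), KO and WT livers by 0.12 ± 0.12 (limma, adjusted p = 0.485), and the interaction was −0.04 ± 0.36 (limma, adjusted p = 0.965).

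Abcb4 had the highest mean FPKM of the members in both normal liver groups, although the first 3 members overlapped there and Abcc2 was higher in WT liver 3 (109 against 99.0 FPKM). It encodes the canalicular floppase that supplies phosphatidylcholine to bile. It had 53.0, 83.1 and 136 FPKM in KO tumors, 36.4, 67.6 and 83.8 FPKM in WT tumors, 102, 104 and 143 FPKM in KO livers, and 107, 109 and 99.0 FPKM in WT livers. Tumors spread more widely than livers, and WT tumors lay below all WT livers in FPKM. That difference was −0.82 ± 0.28 on the log2 scale (limma, adjusted p = 0.0894), and it passed without WT tumor 1 (−0.48, adjusted p = 0.0474) or without WT tumor 3 (−1.07, adjusted p = 0.0487). After TPM rescaling WT tumors (73.6 to 140.4 TPM) overlapped WT livers (139.1 to 167.5 TPM). KO tumors and KO livers differed by −0.44 ± 0.35 (limma, adjusted p = 0.418), KO and WT tumors by 0.51 ± 0.43 (limma, adjusted p = 0.586) and KO and WT livers by 0.13 ± 0.15 (limma, adjusted p = 0.561), and in none of these did the groups separate.

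Abcb1a, which encodes a mouse P-glycoprotein that exports hydrophobic drugs, differed as much within groups as between them in its higher entry. That entry had 6.79, 25.5 and 22.8 FPKM in KO tumors, 3.81, 27.6 and 19.1 FPKM in WT tumors, 10.4, 14.5 and 36.8 FPKM in KO livers, and 23.1, 17.5 and 13.7 FPKM in WT livers. All 4 groups overlapped, and none of the 4 differences or the interaction passed (adjusted p = 0.661 to 0.989 by limma). The lower entry had 4.87, 3.28 and 4.32 FPKM in KO tumors, 4.89, 1.95 and 2.22 FPKM in WT tumors, 1.66, 1.82 and 2.02 FPKM in KO livers, and 2.41, 1.96 and 1.55 FPKM in WT livers. In that entry the KO tumors lay above both liver groups. It was higher by 0.85 ± 0.17 in KO tumors than in KO livers (limma, adjusted p = 0.0248), a call lost without the filter (0.0602) and without any 1 of KO livers 1, 2 and 3 or KO tumor 1 (adjusted p = 0.0641 to 0.0980). Abcb1a thus gives opposite signs in KO tissue by entry, with −0.15 ± 0.59 in the higher one, itself 0.26 after TPM rescaling.

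**Figure D3:**
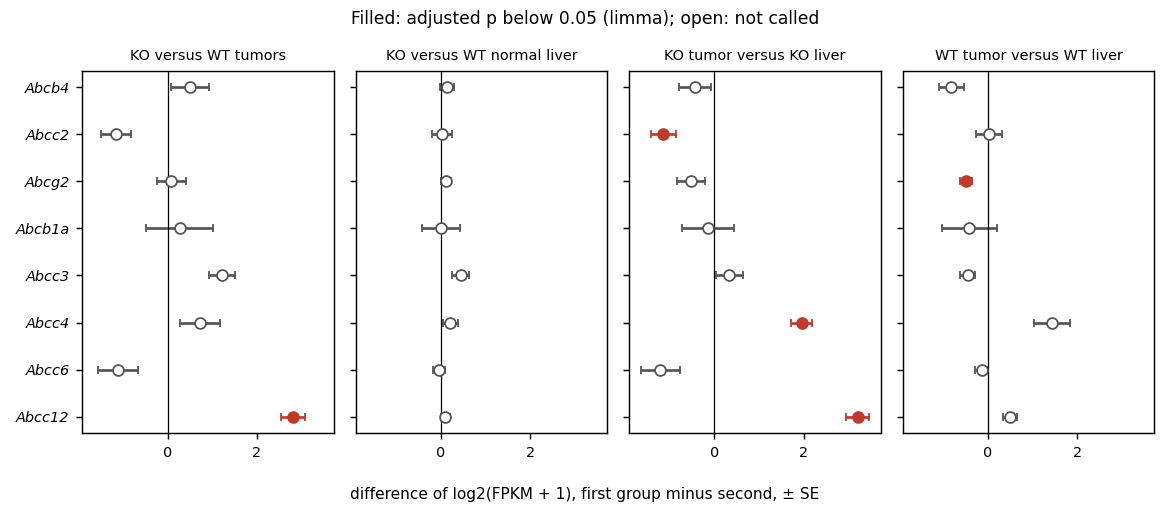
Difference of log2(FPKM + 1), first group minus second, with ± SE from limma, for the 8 members in 4 comparisons on a common horizontal axis; filled red points have an adjusted p below 0.05. Filled points are Abcc12 (2.81) between KO and WT tumors, Abcc12 (3.20), Abcc4 (1.95) and Abcc2 (−1.14) between KO tumors and KO livers, and Abcg2 (−0.49) between WT tumors and WT livers.

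As a group, the 8 members held 5 calls over the 4 comparisons of 2 groups, all of them involving tumors. Between KO and WT tumors 1 of 8 was called, higher, where 0.0771% of all tested entries were called either way, 0.0343% higher and 0.0428% lower. The called member was Abcc12, which passed the filter only through the KO tumors, so this count is tied to the filter. Without the filter the call was lost (limma, adjusted p = 0.103). The groups did not overlap for 4 members, 2 higher (Abcc3 and Abcc12) and 2 lower (Abcc2 and Abcc6), against 23.9% of all tested entries. The members' median difference was 0.39 and that of all tested entries 0.02. Between KO tumors and KO livers 2 were called higher, Abcc12 again among them, and 1 lower. Of all entries 14.3% were called there, 9.09% higher and 5.17% lower. The groups did not overlap for 4 members, against 41.1% of all entries. The median was −0.30 for the members and −0.02 for all, and 0.12 and 0.36 after TPM rescaling, which left 2 members called higher and 0 lower, where 15.3% of all entries were then higher and 2.41% lower.

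Between WT tumors and WT livers 1 of 8 was called, lower, against 17% called either way, 8.01% higher and 8.96% lower, and 5 members did not overlap, 2 higher and 3 lower, against 42.3%. The median was −0.28 for the members and −0.04 for all. After TPM rescaling 2 members, Abcc4 and Abcc12, were called higher and 0 lower, where 14.2% of all entries were then higher and 3.5% lower. In normal liver 0 of 8 were called and 0 separated between KO and WT mice, where 18.1% of all entries were called by limma, 9.33% higher and 8.77% lower, and 42.6% did not overlap. In that comparison 1 member, Abcc3, had an unadjusted p below 0.05 (limma, 0.0491), as had 4386 of all 11671 entries. No alternative called any member. The members' median was 0.11, against 0.03 for all entries. In the interaction 1 of 8 was called, higher, against 2.08% called either way, 1.15% higher and 0.934% lower. That member was again Abcc12, which passed the filter only through the KO tumors. The comparisons share groups with one another, so their values stand side by side without being independent. In these bulk tissues fewer cells of a type and less RNA per cell cannot be told apart.

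The order of the members by mean FPKM, a level per transcript length, differed between groups. In KO tumors it was Abcc3, Abcb4, Abcc2, Abcg2, Abcb1a, Abcc6, Abcc12 and Abcc4, with each pair of neighbors overlapping. In WT tumors it was Abcc2, Abcb4, Abcc3, Abcg2, Abcc6, Abcb1a, Abcc4 and Abcc12, with gaps after Abcc3 and after Abcc4 and overlap elsewhere. In KO livers it was Abcb4, Abcc3, Abcc2, Abcg2, Abcc6, Abcb1a, Abcc4 and Abcc12, where the first 3 overlapped, Abcc6 overlapped Abcb1a and all other neighbors were separated. In WT livers it was Abcb4, Abcc2, Abcc3, Abcg2, Abcc6, Abcb1a, Abcc4 and Abcc12, where the first 3 overlapped and all later neighbors were separated.

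Markers of other cells differed between groups to an extent that varied by list. The 12 macrophage markers summed to 530 to 737 FPKM in KO tumors, 151 to 469 in WT tumors, 246 to 348 in KO livers and 254 to 403 in WT livers, with 0 of 12 called by limma between KO and WT tumors (5 at an unadjusted p under 0.05) and 5 of 12 higher between KO tumors and KO livers. WT tumors overlapped WT livers in that sum, with 1 marker called higher and 1 lower. Of all 11671 tested entries, 2058 had an unadjusted p under 0.05 between KO and WT tumors. The 12 stellate cell and fibroblast markers summed to 218 to 347 FPKM in KO tumors, 126 to 132 in WT tumors, 138 to 247 in KO livers and 83.0 to 129 in WT livers, with 5 of 12 higher between KO tumors and KO livers. In that comparison 9.09% of all entries were called higher. Between WT tumors and WT livers 3 of the 12 stellate markers were called higher and 0 lower, where 8.01% of all entries were higher. Between KO and WT livers 2 of 12 were higher and 0 lower, where 9.33% of all entries were higher. The stellate sums of KO livers lay above those of WT livers. After TPM rescaling the stellate sums separated, with 515 to 604 TPM in KO tumors and 192 to 345 TPM in KO livers. They were 211 to 267 TPM in WT tumors and 117 to 180 TPM in WT livers. The 10 bile duct markers summed to 321 to 3557 FPKM in KO tumors, 122 to 693 in WT tumors, 124 to 144 in KO livers and 122 to 229 in WT livers. Of 8 tested bile duct markers 2 were called higher and 0 lower between KO tumors and KO livers. Between WT tumors and WT livers 2 were higher and 1 lower. The 9 neutrophil markers summed to 21.0 to 68.8 FPKM in KO tumors, 9.14 to 10.1 in WT tumors, 7.81 to 39.8 in KO livers and 6.52 to 29.4 in WT livers. The 7 B and plasma cell markers summed to 11.7 to 21.5 FPKM in KO tumors, 28.4 to 63.4 in WT tumors, 5.63 to 11.5 in KO livers and 2.84 to 5.72 in WT livers. In that list 3 of 4 tested markers were called higher between WT tumors and WT livers, where 8.01% of all entries were. Endothelial markers summed to 118 to 185 FPKM in KO tumors, 101 to 152 in WT tumors, 142 to 163 in KO livers and 127 to 150.4 in WT livers, so that tumors and livers overlapped on this scale. After TPM rescaling KO tumors (250 to 295 TPM) lay above KO livers (198 to 227 TPM) and WT livers (181 to 210 TPM). WT tumors (170 to 306 TPM) overlapped every other group. Of 9 tested endothelial markers 2 were called higher and 0 lower between KO tumors and KO livers, and 4 higher and 0 lower after TPM rescaling. Of all entries 9.09% were higher and 5.17% lower there, and after TPM rescaling 15.3% and 2.41%. T and NK cell markers summed to 4.70 to 29.3 FPKM in KO tumors, 4.31 to 17.7 in WT tumors, 3.01 to 5.20 in KO livers and 2.04 to 4.55 in WT livers. Erythroid markers summed to 134 to 510 FPKM in KO tumors, 90.5 to 166 in WT tumors, 194 to 308 in KO livers and 203 to 229 in WT livers. No marker of the macrophage, stellate or bile duct lists was at 0 in all 3 libraries of any group, and Mpo and Camp were at 0 in the 3 WT livers. The part of these cells in the transporter levels was not tested.

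**Figure D4:**
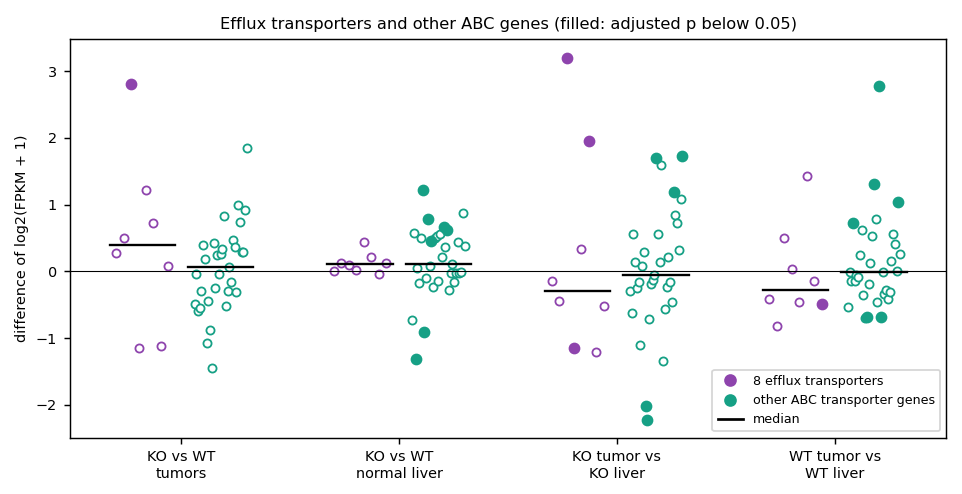
Difference of log2(FPKM + 1), first group minus second, for the 8 efflux transporters (purple) and 31 other tested ABC genes (green) in 4 comparisons; filled points have an adjusted p below 0.05 (limma) and bars are medians. Abcc12 has the highest value of all plotted genes in KO tumors, whether set against WT tumors (2.81) or KO livers (3.20).

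Other genes of the ABC superfamily were set beside the 8 members. They include carriers of lipids, bile salts, heme precursors and peptides, further exporters of the ABCC family such as Abcc5, and Abce1 and the Abcf genes, whose proteins are not transporters. Of 45 listed, 31 were tested. Between KO tumors and KO livers 3 were called higher and 2 lower, with a median of −0.05, and after TPM rescaling 9 higher and 3 lower, with a median of 0.32. Of all entries 9.09% were higher and 5.17% lower, and after TPM rescaling 15.3% and 2.41%. Abcb11, the bile salt export pump of the canalicular membrane, had 21.3, 38.0 and 68.3 FPKM in KO tumors and 160, 151 and 250 FPKM in KO livers, and fell by 2.22 ± 0.42 on the log2 scale (limma, adjusted p = 0.0215). Abcb10, of the mitochondrial inner membrane, had 2.15, 3.30 and 5.03 FPKM in KO tumors and 14.7, 15.4 and 20.05 FPKM in KO livers, and fell by 2.02 ± 0.26 (limma, adjusted p = 0.0093). In both genes every KO tumor lay below every KO liver.

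Tap2 and Abcg1 rose in the same comparison. Tap2, which loads peptides for class I antigen presentation, averaged 69.5 ± 35.5 FPKM in KO tumors and 19.4 ± 6.05 FPKM in KO livers (SD, n = 3 each) and rose by 1.72 ± 0.38 (limma, adjusted p = 0.0299). Abcg1, a cholesterol exporter, averaged 4.03 ± 0.893 FPKM in KO tumors and 1.19 ± 0.210 FPKM in KO livers and rose by 1.19 ± 0.18 (limma, adjusted p = 0.0132). Leaving out 1 library ended the call of Abcb10 (KO liver 3, adjusted p = 0.0524), of Abcg1 in 3 of 6 runs (up to 0.0628), and of Abcb11 and Tap2 in 4 of 6 runs each (up to 0.0851 and 0.107). Without the filter on low FPKM the calls of Abcb11 and Tap2 were lost as well (adjusted p = 0.0508 and 0.0644). That of Tap2 was also lost with the replicate number as a block (limma, adjusted p = 0.0531).

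Abcc5, which encodes the cyclic nucleotide exporter MRP5 and was named after its values were seen, was called in both tumor-to-liver comparisons. It had 11.2, 6.24 and 2.59 FPKM in KO tumors, 9.48, 3.34 and 3.13 FPKM in WT tumors, 1.05, 1.69 and 0.672 FPKM in KO livers, and 1.29, 1.22 and 1.43 FPKM in WT livers. Every tumor lay above every liver, and KO and WT tumors overlapped. It rose by 1.70 ± 0.43 between KO tumors and KO livers (limma, adjusted p = 0.0426), called in 6 of 13 alternative settings (adjusted p = 0.0063 to 0.137), and by 1.31 ± 0.35 between WT tumors and WT livers (limma, adjusted p = 0.0434), called in 5 of 13 (adjusted p = 0.0093 to 0.123).

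Between WT tumors and WT livers 4 of the 31 were called higher and 2 lower, with a median of −0.01, and after TPM rescaling 6 higher and 0 lower, with a median of 0.24. Of all entries 8.01% were higher and 8.96% lower, and after TPM rescaling 14.2% and 3.5%. Abcd2, a peroxisomal fatty acid transporter, had 25.5, 9.41 and 5.28 FPKM in WT tumors and 0.769, 0.727 and 0.745 FPKM in WT livers and rose by 2.78 ± 0.47 (limma, adjusted p = 0.0125). Tap1, the partner of Tap2, averaged 18.3 ± 2.21 FPKM in WT tumors and 8.70 ± 2.90 FPKM in WT livers and rose by 1.03 ± 0.23 (limma, adjusted p = 0.0272). The peroxisomal Abcd3 averaged 134 ± 7.79 FPKM in WT tumors and 216 ± 6.82 FPKM in WT livers and fell by 0.69 ± 0.11 (limma, adjusted p = 0.0116). Abcb6, a porphyrin transporter, averaged 26.3 ± 4.51 FPKM in WT tumors and 42.6 ± 2.19 FPKM in WT livers and fell by 0.69 ± 0.15 (limma, adjusted p = 0.0233). The calls of Abcd2 and Abcd3 ended without WT liver 3 (adjusted p = 0.0569 and 0.0558), and those of Abcb6 and Tap1 in 3 and 4 of 6 runs (up to 0.0794 and 0.0658). TPM rescaling ended those of Abcd3 (−0.39, adjusted p = 0.0587) and Abcb6 (−0.40, adjusted p = 0.0634). These 2 calls were also lost in 1 fit of all 12 libraries (limma, adjusted p = 0.138 for Abcd3 and 0.281 for Abcb6). That of Tap1 was lost without the filter (limma, adjusted p = 0.0526) and with the replicate number as a block (0.0515).

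In normal liver 5 of the 31 were called higher and 2 lower between KO and WT mice, with a median of 0.10. Of all entries 9.33% were called higher and 8.77% lower there. No efflux member was called, and no difference between these sets of genes was tested. Abca8a averaged 49.0 ± 11.3 FPKM in KO livers and 20.2 ± 1.38 FPKM in WT livers and rose by 1.21 ± 0.18 (limma, adjusted p = 0.0123). Its relative Abca8b went the other way, with 3.65 ± 0.0947 FPKM in KO livers and 7.78 ± 0.993 FPKM in WT livers (−0.91 ± 0.13, limma, adjusted p = 0.0117). These 2 are similar genes, so their division of reads is uncertain. Abca3, a lipid transporter known from lung surfactant, averaged 10.4 ± 2.13 FPKM in KO livers and 28.6 ± 11.2 FPKM in WT livers (−1.31 ± 0.32, limma, adjusted p = 0.0354), and Abcd2 averaged 1.79 ± 0.523 FPKM in KO livers and 0.747 ± 0.0208 FPKM in WT livers (0.66 ± 0.15, limma, adjusted p = 0.0325). The calls of Abca8a and Abca8b ended without WT liver 3 (adjusted p = 0.0547 and 0.0506), that of Abca3 in 4 of 6 runs (up to 0.119) and that of Abcd2 in 5 of 6 (up to 0.102). Calls were also lost in 1 fit of all 12 libraries for Abca8a (adjusted p = 0.127) and Abcd2 (0.435), without the filter for Abca3 (0.0641) and Abcd2 (0.0575), and with the replicate block for Abca8a (0.0548), Abca8b (0.0579) and Abcd2 (0.0770).

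Among tumors 0 of the 31 were called by limma between KO and WT mice, where 0.0771% of all entries were. Of the 31, 8 had an unadjusted p under 0.05, as had 2058 of all 11671 entries, and the median was 0.06. In the interaction, where 2.08% of all entries were called, 1 of the 31 was called. That was Abcb10, which had 2.15, 3.30 and 5.03 FPKM in KO tumors, 5.14, 8.44 and 7.65 FPKM in WT tumors, 14.7, 15.4 and 20.05 FPKM in KO livers, and 9.33, 7.24 and 11.5 FPKM in WT livers. KO tumors lay below WT tumors, and KO livers above WT livers. The interaction was −1.66 ± 0.36 (limma, adjusted p = 0.0445), called in 7 of 18 alternative settings.

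Regulators known to control such transporters were described beside them. The list held 13 nuclear receptors and other factors of drug response, all tested. Between KO and WT tumors 0 were called by limma, where 0.0771% of all entries were. There 0 had an unadjusted p under 0.05, against 2058 of all 11671 entries. Between KO tumors and KO livers 0 were called, where 14.3% of all entries were. There 3 had an unadjusted p under 0.05, against 3938 of all 11671 entries. Between WT tumors and WT livers 6 were lower, where 8.96% of all entries were, and after TPM rescaling 4, where 3.5% were. Between KO and WT livers 4 were lower, where 8.77% of all entries were. No difference between the regulators and all entries was tested. Nr1i3, the drug-sensing receptor CAR, had 25.9, 27.2 and 28.3 FPKM in WT tumors and 74.7, 92.9 and 63.7 FPKM in WT livers and fell by 1.46 ± 0.15 (limma, adjusted p = 0.0035), a call lost in 1 fit of all 12 libraries (adjusted p = 0.167). It had 14.97, 4.49 and 57.6 FPKM in KO tumors and 57.8, 143 and 73.7 FPKM in KO livers (−2.31 ± 0.80, limma, adjusted p = 0.0929). Ppara, a fatty acid-sensing nuclear receptor, had 17.0, 11.6 and 23.7 FPKM in KO tumors, 24.1, 19.2 and 17.4 FPKM in WT tumors, 20.8, 14.3 and 15.6 FPKM in KO livers, and 53.9, 41.2 and 48.5 FPKM in WT livers. Every WT liver lay above all other libraries, and the other 3 groups overlapped. Ppara fell by 1.21 ± 0.16 between WT tumors and WT livers (limma, adjusted p = 0.0065), and the difference between KO and WT livers was −1.46 ± 0.17 (limma, adjusted p = 0.0080).

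Enzymes that make the conjugates exported by the ABCC proteins were counted in the same way. Of 40 listed, 32 were tested. Between WT tumors and WT livers 3 were higher and 11 lower (median −0.43), where 8.01% of all entries were higher and 8.96% lower. After TPM rescaling 3 were higher and 7 lower (median −0.13), where 14.2% of all entries were higher and 3.5% lower, and no difference between the enzymes and all entries was tested. Between KO tumors and KO livers 4 were higher and 5 lower (median −0.41), where 9.09% of all entries were higher and 5.17% lower. That balance turned to 6 higher and 4 lower after TPM rescaling (median 0.02), where the shares of all entries were 15.3% and 2.41%. Between KO and WT livers 7 were higher and 1 lower (median 0.21), where 9.33% of all entries were higher and 8.77% lower. Between KO and WT tumors 0 were called by limma (median 0.24), where 0.0771% of all entries were. An unadjusted p under 0.05 was found there for 13 of the 32 enzymes and for 2058 of all 11671 entries. Ugt3a1, a glycosyltransferase, averaged 8.78 ± 1.01 FPKM in WT tumors and 30.8 ± 4.73 FPKM in WT livers and fell by 1.69 ± 0.15 (limma, adjusted p = 0.0019), a call lost in 1 fit of all 12 libraries (adjusted p = 0.0546). Gsta1, a glutathione transferase with a near copy in Gsta2, had 54.1, 109 and 42.9 FPKM in KO tumors, 11.5, 9.91 and 13.5 FPKM in WT tumors, 3.08, 3.01 and 5.15 FPKM in KO livers, and 2.63, 6.36 and 3.28 FPKM in WT livers. It was highest in all 3 KO tumors and higher in WT tumors than in any liver. It rose by 3.79 ± 0.36 between KO tumors and KO livers (limma, adjusted p = 0.0055), called in all 13 alternative settings.

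Genes of the proteins that anchor and traffic canalicular transporters were called about as often as all tested entries between KO tumors and KO livers. Of 14 listed, 13 were tested, with 2 higher between KO tumors and KO livers (9.09% of all entries higher and 14.3% called either way). Another 1 was lower between WT tumors and WT livers (8.96% of all entries lower). Between KO and WT livers 1 was lower (8.77% of all entries lower), and that was Msn (−0.59 ± 0.13, limma, adjusted p = 0.0288). Msn had 3.49, 3.24 and 2.76 FPKM in KO livers and 4.79, 5.78 and 5.17 FPKM in WT livers. Between KO and WT tumors 0 were called by limma, where 0.0771% of all entries were. An unadjusted p under 0.05 was found there for 6 of the 13 and for 2058 of all 11671 entries. The 2 that rose were Ezr and Msn, which link membrane proteins to actin and of which Msn is also abundant in leukocytes. Ezr averaged 7.34 ± 2.43 FPKM in KO tumors and 2.00 ± 0.131 FPKM in KO livers (1.44 ± 0.22, limma, adjusted p = 0.0131), and Msn averaged 12.1 ± 4.67 FPKM in KO tumors and 3.16 ± 0.371 FPKM in KO livers (1.58 ± 0.30, limma, adjusted p = 0.0204). Of the macrophage markers and of the stellate markers, 5 of 12 each were called higher in the same comparison, and their part was not tested. Leaving out KO liver 1, 2 or 3 ended both calls and leaving out KO tumor 1 that of Msn (adjusted p = 0.0546 to 0.0828), which was also lost without the filter (0.0506).

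The genes whose profiles lay nearest to a called member were taken from 9863 entries with a single name, by the root mean square difference of log2(FPKM + 1) over the 12 libraries after each profile was centered on its mean. For Abcc12 they were Cyp4f18 (0.360) and Apobec3 (0.369), against a spread of Abcc12 about its own mean of 1.38. For Abcc4 they were Osbpl3 (0.245) and Msantd3 (0.310), against 0.977. For Abcc2 they were Sgpp1 (0.270) and Lyrm5 (0.289), against 0.595. For Abcg2 they were Cycs (0.155) and Arl6ip1 (0.162), against 0.379. Cyp4f18 averaged 7.57 FPKM in KO tumors, 1.23 in WT tumors, 0.508 in KO livers and 0.283 in WT livers. Likeness to the member was the basis of its choice.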

How the data were processed

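RNA from 12 libraries (3 each of KO tumors, WT tumors, KO livers and WT livers) was analysed from 1 FPKM table per library, deposited by the authors. The authors used Cufflinks 2.2.1 and TopHat2 2.1.1 with build mm10, per the submitters' processing notes. Program options are not stated there, and the annotation is not given in the sources used here. No whole reads could be recovered from the deposited FPKM values, since at most 0.415% of low values lay on a common ratio between libraries (tolerance 0.001 on the log2 scale), so depth and counting error are unknown and the precision rests on 3 libraries per group. Because separate animals are not stated for the libraries, the p-values reflect only the spread among these samples.

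Entries of 1 name listed repeatedly were kept apart. Values entered as log2(FPKM + 1), and 11671 of 24553 entries with an FPKM of 1 in at least 3 of 12 libraries were tested. limma 3.58.1 in R 4.3.3, with a variance trend, was fitted on the 6 libraries of each comparison and on all 12 for the interaction of genotype and tissue. Tests were two-sided, with Benjamini-Hochberg adjustment over the 11671 entries, and called at an adjusted p below 0.05. The fit was also run on simulated data with independent libraries, and no result given here rests on that run. 1 regulator gene and 1 motif are not reported here. The members, the gene lists and the cell markers were chosen with earlier results of these data known. Named were all members, Setd2, up to 4 called ABC genes per comparison and up to 2 called genes of each other list by smallest adjusted p, and the 2 nearest profiles of each called member.

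Alternatives were pseudocounts of 0.1 and 5, no filter, TPM rescaling, median-of-ratios scaling, 1 fit of all 12 libraries, the replicate number as a block, and each library left out. Taking Abcb1a from its lower entry was chosen after the data were seen. Upstream sequences come from RefSeq on GRCm38.p6 and positions from GENCODE vM21.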

Additional observations from a re-analysis of the deposited data

Results flagged for a closer look

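Among the members and the other genes named, 3 had an effect of the knockout that differed between tumors and normal liver. The test was the limma interaction over 12 libraries, in which 2.08% of all tested entries were called. Abcb10 and Gsta1 were named because they were called, Abcb10 in this interaction and Gsta1 between KO tumors and KO livers. The count of 3 therefore cannot be set against that percentage. The remaining gene, Abcc12, passed the filter on low FPKM only through the KO tumors. Abcc12 differed by 2.71 ± 0.32 on the log2 scale (adjusted p = 0.0120), with a difference of 2.81 between KO and WT tumors and of 0.10 between KO and WT livers, and it was called in all 18 alternative settings.

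Abcb10 differed by −1.66 ± 0.36 (limma, adjusted p = 0.0445), with −0.87 between KO and WT tumors and 0.78 between KO and WT livers, and was called in 7 of 18 alternative settings (adjusted p = 0.0102 to 0.116). Gsta1 differed by 2.42 ± 0.49 (limma, adjusted p = 0.0379), with 2.36 between KO and WT tumors and −0.06 between KO and WT livers, and was called in 8 of 18 (adjusted p = 0.0106 to 0.0928).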

How the results depend on the processing

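The counts of called members depended on the settings. Between KO and WT tumors the count of 1 became 0 with a pseudocount of 5, without the filter and with the replicate block, 3 in 1 fit of all 12 libraries, and 0 to 1 with a library left out. Between WT tumors and WT livers the count of 1 became 3 with a pseudocount of 0.1, 2 after TPM rescaling, 0 without the filter, with median-of-ratios scaling and with the replicate block, and 0 to 2 with a library left out. For the interaction, leaving out a library gave 1 to 3, and between KO tumors and KO livers 2 to 4. Between KO and WT livers every setting run gave 0. Taking Abcb1a from its lower entry gave 4 called between KO tumors and KO livers in place of 3.

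Deviations of same-numbered libraries from their group means correlated across entries at −0.276 to 0.347, highest between KO tumor 1 and WT tumor 1. Differently numbered libraries were not compared, so whether the replicate numbers mark pairs or a shared batch was not settled. With the block 153, 0, 1235, 1420 and 114 of all entries were called between KO and WT livers, KO and WT tumors, WT tumors and WT livers, KO tumors and KO livers and in the interaction, against 2113, 9, 1981, 1664 and 243 without it. Without the filter these counts were 1355, 1, 1578, 852 and 56, and in 1 fit of all 12 libraries 1144, 1017, 1105 and 3340 for the comparisons of 2 groups. With a library left out they ran from 240 to 1964, 0 to 266, 454 to 2134, 129 to 2981 and 7 to 1368.

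TPM rescaling moved the median of all tested entries to 0.12, 0.23, 0.36 and 0.14 between KO and WT tumors, WT tumors and WT livers, KO tumors and KO livers and in the interaction. It gave 24 calls between KO and WT tumors and 115 in the interaction. The share of calls that were higher became 80.3% (47.2% without it), 86.4% (63.8%) and 66.1% (55.1%) in the last 3, while median-of-ratios scaling gave 30.8% (44.4%) between KO and WT tumors. Signs turned after TPM rescaling for Abcb1a between KO and WT livers (−0.0041) and between KO tumors and KO livers (0.26), for Abcc6 (0.15) and Setd2 (0.14) between WT tumors and WT livers, and for the interaction of Abcg2 (0.089). None of these was called.

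Leaving out a library turned the sign of differences that were not called. Abcb1a ran from −0.49 to 0.37 between KO and WT livers, −0.50 to 0.84 between KO and WT tumors, −0.93 to 0.36 between WT tumors and WT livers, −0.51 to 0.41 between KO tumors and KO livers and −0.51 to 0.83 in the interaction. Between KO and WT livers its lower entry ran from −0.17 to 0.042, Abcb4 from −0.027 to 0.22, Abcc2 from −0.19 to 0.20 and Abcc6 from −0.12 to 0.046. Abcc2 ran from −0.23 to 0.26 between WT tumors and WT livers, and Abcg2 from −0.27 to 0.33 between KO and WT tumors and −0.39 to 0.21 in the interaction. Of 20 results for other named genes, 2 were called in every setting, 18 lost the call in at least 1, and 0 changed sign. The cause of these changes was not tested.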
